A study of Mus musculus with 11 samples.

Results

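The genes of the cytosolic ribosomal proteins were examined in colonic epithelial cells of mice fed with or without cellulose. They were taken as the rows of the count table whose symbol is Rpl or Rps with a number, or Rpsa, Rplp0, Rplp1 or Rplp2, without pseudogene symbols (-ps) and without the Rps6k kinases. This gave 89 of 52550 rows, 36 for the small and 53 for the large subunit. RNA came from 5 CD mice, on a purified diet with cellulose, and 6 FFD mice, on the fiber-free counterpart, with 1 library per mouse. All 11 mice were RAG1 KO mice on the C57BL/6 background, which lack mature T and B cells but keep innate immune cells, and all had 4 weeks of the diet and then dextran sulfate sodium (DSS) in the drinking water for 5 days. DSS damages the epithelium of the colon, and mice without DSS were not analysed here. The comparison asked how the epithelial RNA of injured mice differs with dietary cellulose. A number in the sample labels is 1 for every CD and 2 for every FFD mouse, and whatever it marks cannot be told apart from the diet.

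Ribosomes consist of a small subunit, which reads the mRNA, and a large subunit, which joins amino acids and releases the chain through a tunnel. Their proteins are made in near-equal numbers, from some of the most abundant mRNAs of a cell. Most of these mRNAs begin with a C followed by a run of pyrimidines, the 5′ terminal oligopyrimidine (TOP) motif, through which the kinase complex mTORC1 and the binding protein Larp1 control their translation and stability. Elongation factor mRNAs carry the same motif. Ribosome production is high in dividing cells, which in the colon lie in the crypts.

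Total counts were 10374154 to 28588266 per mouse, lowest in FFD mouse 4. The epithelial origin showed in summed levels of 10 epithelial genes of 14102 to 21905 CPM (counts scaled to the TMM-normalized library total). In contrast, 9 T and B cell genes summed to 1.61 to 2.46 CPM, with 5 of them, among them Cd3e and Cd79a, without a read in at least 1 mouse. Rag1 itself had 8 to 40 counts per mouse, too few to check a genotype that both diets share. Strand use and the handling of reads that map to several genes are not stated by the sources read here. This touches ribosomal protein genes in particular, since many have near-identical pseudogenes and 39 of the 81 tested ones overlap an exon of another annotated gene.

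The sequences around some starts are shown because the TOP motif is the feature that these mRNAs share. RefSeq (GRCm38.p6) gave a window of 250 bases before to 50 bases after the annotated start for 64 of the 89 genes, 61 of them tested. The letters CTTTC, as 1 short pyrimidine run, were searched within 25 bases of the start. They were found on the sense strand in 18 of 61 ribosomal protein genes (29.5%), against 7.09% of 11053 tested genes and 7.87% of all 27025 genes with a window. On the opposite strand they were found in 6 of the 61 (9.84%), against 6.01% of tested genes. The letters CCGGAAG, the core of the binding site of ETS factors, were found on either strand of the 300-base window in 25 of 61 (41.0%), against 18.8% of tested genes and 9.93% of all genes with a window. A match is only a description, and annotated starts can lie some bases from the used ones. The 30 bases centred on the start follow for 6 genes with a run and for 3 paralogs without the letters, chosen after the search. Of the annotated starts of Rps27l, the one farther upstream is shown. Capitals mark the pyrimidine run that holds CTTTC.
Rps10 (chr17:27635230-27635259, minus strand): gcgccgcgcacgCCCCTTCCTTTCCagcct
Rps26 (chr10:128626492-128626521, minus strand): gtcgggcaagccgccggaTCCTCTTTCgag
Rplp2 (chr7:141447636-141447665, plus strand): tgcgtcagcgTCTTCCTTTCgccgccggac
Rpl15 (chr14:18270972-18271001, minus strand): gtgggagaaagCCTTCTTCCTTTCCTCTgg
Rpl28 (chr7:4792950-4792979, plus strand): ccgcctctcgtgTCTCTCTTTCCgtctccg
Rpl35 (chr2:39005117-39005146, minus strand): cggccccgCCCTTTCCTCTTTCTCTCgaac
Rps27l (chr9:66946071-66946100, plus strand): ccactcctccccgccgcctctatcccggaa
Rpl36al (chr12:69184053-69184082, minus strand): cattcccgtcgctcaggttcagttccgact
Rpl7l1 (chr17:46782642-46782671, minus strand): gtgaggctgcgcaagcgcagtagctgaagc

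Ribosomal protein genes were lower in FFD than in CD mice as a group and by a similar amount, with a median log2 fold change of -0.53, so that the median level fell by 30.8%. The median over all 15044 genes tested was -0.033. Their rows held 4.67, 6.36, 5.90, 6.38 and 5.13% of all counts in CD mice 1 to 5 (5.69 ± 0.761%, SD, n = 5). In FFD mice 1 to 6 they held 4.09, 3.34, 4.50, 3.31, 3.27 and 2.90% (3.57 ± 0.596%, SD, n = 6). The FFD mean was 0.627 times the CD mean, a difference of -2.12 percentage points, and the diets did not overlap, although FFD mouse 3 came close to CD mouse 1. The share is relative to the raw total. With TMM-normalized totals, which allow for genes that rose, the difference was -1.64 points. Mean shares of small subunit genes were 2.30 ± 0.312% in CD and 1.43 ± 0.242% in FFD mice, and those of large subunit genes 3.39 ± 0.448% and 2.14 ± 0.354%. In bulk RNA, fewer cells rich in ribosomal protein mRNA and less of it in each cell cannot be told apart.

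**Figure D1:**
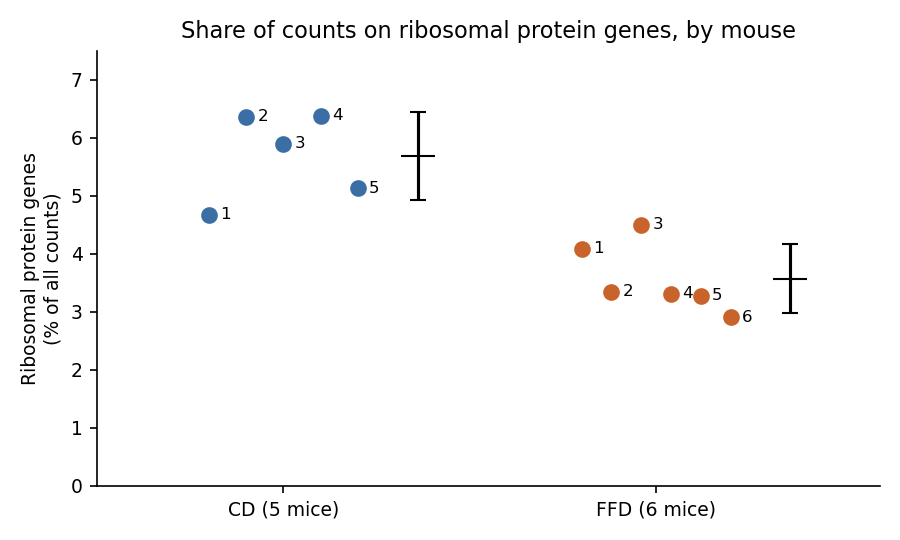
Share of all counts that fell on the 89 ribosomal protein genes (y axis, %) in each of 5 CD and 6 FFD mice (points, numbered by mouse), with mean and SD at the side. The FFD mice lie between 2.90 and 4.50% and the CD mice between 4.67 and 6.38%.

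Mice of 1 diet also differed from each other, and they did so for nearly all of these genes together. Relative to the CD mean of each gene, the median of the 81 tested genes was 81.7% in CD mouse 1 and 92.9 to 112% in the other CD mice. It was 59.1% in FFD mouse 6, 64.7 to 67.9% in FFD mice 2, 4 and 5, and 77.5 and 79.8% in FFD mice 1 and 3. CD mouse 1 was the lowest CD mouse for 79 of the 81 genes, and FFD mouse 6 the lowest FFD mouse for 71. FFD mouse 3 was the highest FFD mouse for 52 genes and FFD mouse 1 for 27. All 6 FFD mice lay below all 5 CD mice for 54 of the 81 genes, where 9.59% of all tested genes showed this. No such gene had all FFD mice above all CD mice, against 8.91% of tested genes. A comparison without CD mouse 1 was added after the data were seen. In it, all 6 FFD mice lay below CD mice 2 to 5 for 79 of 81 genes, against 12.2% of tested genes. The exceptions were then Rps2 and Rps27l.

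**Figure D2:**
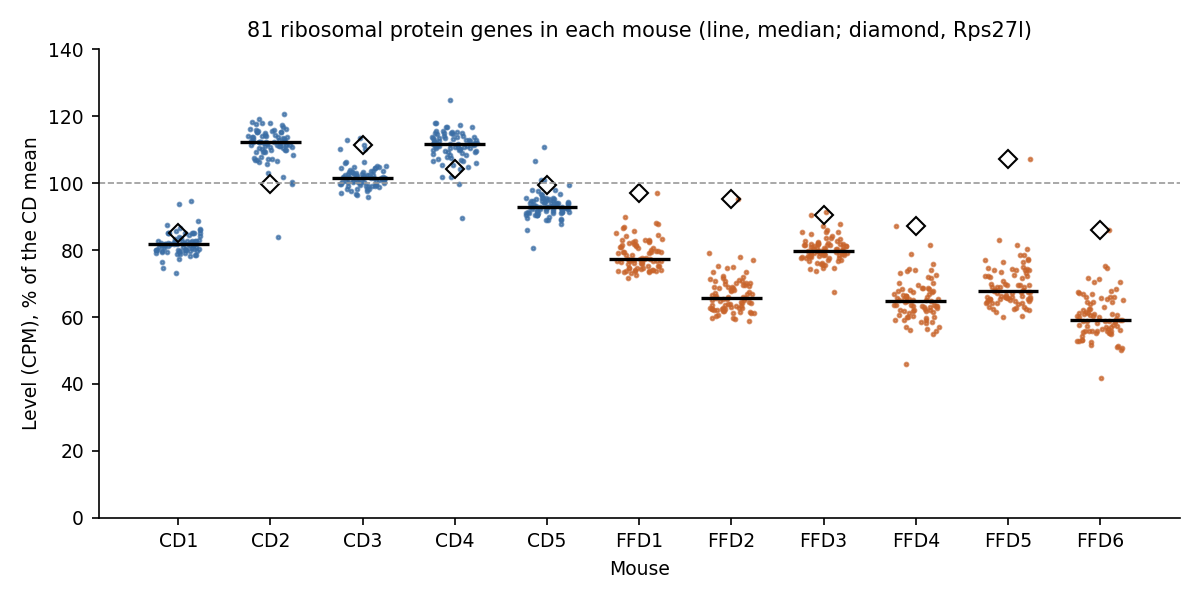
Level of each of the 81 tested ribosomal protein genes (points) in each mouse, as % of its mean CPM over the CD mice, with the median (line) and Rps27l (diamond). Medians are 81.7 to 112% for CD mice and 59.1 to 79.8% for FFD mice, and Rps27l lies above the median in every FFD mouse.

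By edgeR's quasi-likelihood test over all genes, 80 of the 81 tested ribosomal protein genes fell without cellulose (adjusted p under 0.05), and 0 rose (0 also at an unadjusted p under 0.05, by edgeR and by DESeq2). Of all 15044 genes tested, 18.6% fell and 18.2% rose. The fall was 31 of 32 small subunit genes (median log2 fold change -0.55) and 49 of 49 large subunit genes (median -0.53). Among the 80 genes the log2 fold changes ran from -0.70 to -0.30, with quartiles of -0.58 and -0.46, and adjusted p from 0.0017 to 0.011. The median standard error was 0.10. The 18 genes with CTTTC near the start had a median of -0.54 and the 43 without it -0.52. The remaining 8 of the 89 genes had at most 29 counts over all mice and were not tested. Rps12l1, Rps4l and Rps3a3 had no read, and Rpl10l, Rpl39l, Rpl3l, Rps3a2 and Rpl6l had 3, 5, 16, 20 and 29 counts. Of these, Rps12l1, Rps4l, Rps3a3, Rps3a2 and Rpl6l are annotated as pseudogenes in GENCODE M21, although their symbols lack -ps. Rpl3l and Rpl10l are known as paralogs of striated muscle and of the testis.

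**Figure D3:**
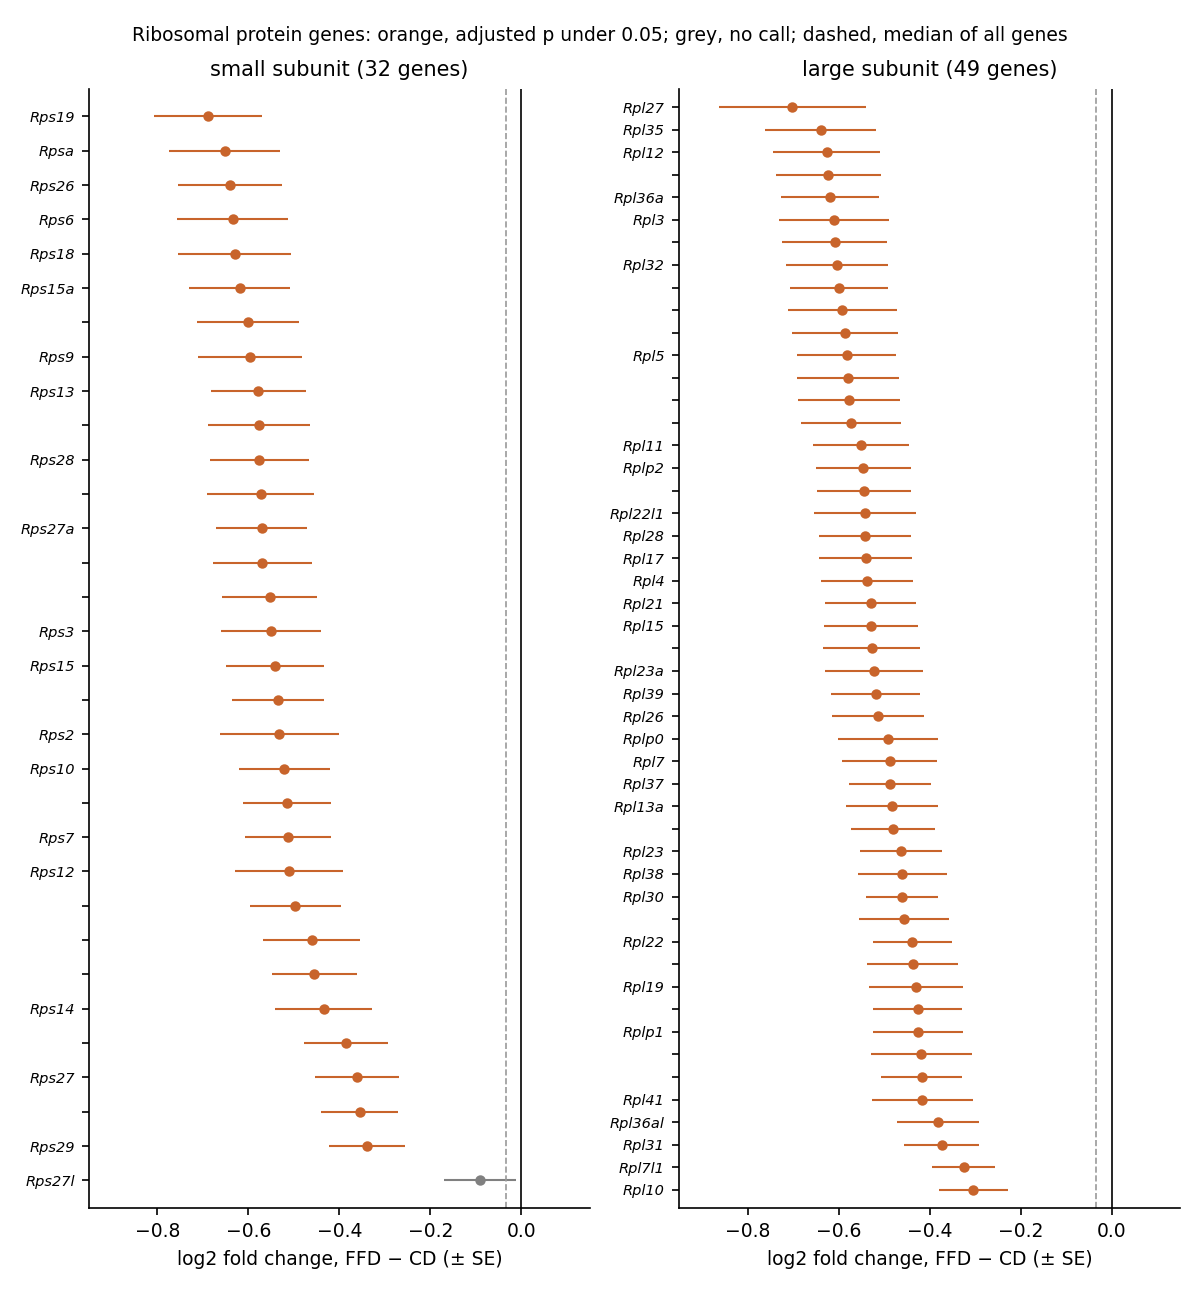
Log2 fold change of FFD against CD (x axis, point and SE) for the 32 small and 49 large subunit genes tested, ordered within each subunit and with names for part of them, with the median of all genes as a dashed line. All genes but Rps27l lie between -0.70 and -0.30.

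In the small subunit, the genes with the largest falls included Rps19, which is needed to mature the small subunit rRNA and is mutated in Diamond-Blackfan anemia. Rps19 stood at 481, 687, 620.0, 704 and 556 CPM in CD mice 1 to 5. In FFD mice it was 315 to 453 CPM (median 364), with every FFD mouse below every CD mouse. Its log2 fold change was -0.69 ± 0.12 SE, adjusted p = 0.0017. Rps6, the protein that S6 kinase phosphorylates, was 787, 1119.8, 989, 1099.9 and 904 CPM in CD and 498 to 775 CPM (median 602) in FFD mice, again without overlap, with a change of -0.63 ± 0.12 SE, adjusted p = 0.0025.

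The 3 proteins that line the mRNA entry channel fell by similar amounts. Rps2 was 539.5 ± 85.4 CPM with cellulose and 373 ± 63.1 CPM without it (SD), Rps3 1108 ± 149 CPM with cellulose and 756 ± 96.8 CPM without it and Rps9 997 ± 149.7 CPM with cellulose and 659 ± 83.2 CPM without it, with log2 fold changes of -0.53, -0.55 and -0.60. Rps2 was the gene of the 3 that overlapped, because CD mouse 5 (434 CPM) was below FFD mice 1 and 3 (447 and 438 CPM). Genes for proteins at the mRNA exit also fell, with log2 fold changes of -0.65 for Rpsa, -0.64 for Rps26, -0.58 for Rps28 and -0.43 for Rps14. Rps26, which contacts the mRNA just upstream of the start codon, was 600.2 ± 81.6 CPM with cellulose and 385 ± 56.1 CPM without it (SD, -0.64 ± 0.11 SE, adjusted p = 0.0019). Rpsa, also known as the laminin receptor, went from 1394 ± 190.4 to 887 ± 139 CPM.

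Rps29 and Rps27 were among the tested small subunit genes with the smallest falls. Rps29 was 337, 462, 412, 447 and 402 CPM in CD and 309.7 to 362 CPM (median 315) in FFD mice, and 4 of the 6 FFD mice were below the lowest CD mouse, with a change of -0.34 ± 0.08 SE, adjusted p = 0.0076. Rps27, a zinc finger protein, had a change of -0.36 ± 0.09 SE, adjusted p = 0.0095, with 4 of 6 FFD mice below all CD mice. Rps27a, which is made as a fusion with ubiquitin and so also supplies ubiquitin, was 638 ± 70.8 CPM with cellulose and 429.5 ± 52.8 CPM without it, and the diets did not overlap (-0.57 ± 0.10 SE, adjusted p = 0.0018). Rps13, Rps15a, Rps7 and Rps18 had changes of -0.58, -0.62, -0.51 and -0.63, and Rps15 had -0.54.

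In the large subunit, the 4 genes of the stalk that recruits elongation factors fell. Rplp0, the base of the stalk and the gene with the most counts of all 89 (558845 over all mice), was 1987, 2881, 2490.2, 2768 and 2365 CPM in CD and 1524 to 2029 CPM (median 1744) in FFD mice. It overlapped only through CD mouse 1, which lay below FFD mice 1 and 3, and its change was -0.49 ± 0.11 SE, adjusted p = 0.0047. Rplp1 and Rplp2, the acidic stalk proteins, had changes of -0.43 and -0.55, and Rpl12, which binds beside Rplp0, had -0.63. Rpl5 and Rpl11, which form the particle with 5S rRNA and bind the p53 regulator Mdm2 when ribosome assembly stalls, went from 1279 ± 164 to 854 ± 114 CPM and from 709 ± 100.3 to 484 ± 53.5 CPM. Their log2 fold changes were -0.58 and -0.55, and in both genes all FFD mice were below all CD mice.

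The 8 genes for proteins around the exit tunnel fell, with log2 fold changes from -0.37 (Rpl31) to -0.64 (Rpl35). Rpl35, whose start holds the longest pyrimidine run of the sequences shown, was 205, 291, 287, 342 and 243 CPM in CD and 153 to 202 CPM (median 168) in FFD animals, without overlap (-0.64 ± 0.12 SE, adjusted p = 0.0024). Rpl4, whose loop reaches into the tunnel, was 1413 ± 159 CPM with cellulose and 973 ± 116 CPM without it (-0.54), and Rpl39 had -0.52, Rpl17 -0.54, Rpl23a -0.52, Rpl26 -0.51 and Rpl19 -0.43. Rpl3, near the peptidyl transferase centre, fell by 0.61 on the log2 scale. Rpl13a, Rpl22 and Rpl38 had changes of -0.48, -0.44 and -0.46. The smallest p among the ribosomal protein genes was that of Rpl30, which stood at 248, 315, 303, 306 and 269.7 CPM in CD and 186 to 229 CPM (median 208) in FFD mice (-0.46 ± 0.08 SE, adjusted p = 0.0017). Rpl36a and Rpl32, also among the 10 smallest p-values, had changes of -0.62 and -0.60.

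Levels were taken per kilobase of a single annotated transcript per gene, chosen by annotation rank and only then by shortest length. Rpl41 was highest, with a mean of 2604 CPM per kb in CD mice, followed by Rplp1 (2148), Rplp0 (1839.6), Rpl32 (1709.8) and Rps18 (1565). The median of the 81 genes was 869 CPM per kb. Rpl41, the shortest protein of the ribosome, was 833, 1221, 1254, 1342 and 1039 CPM in CD and 782 to 928 CPM (median 849) in FFD mice. CD mouse 1 lay among the FFD mice, only 2 of which were below it, and the change was -0.42 ± 0.11 SE, adjusted p = 0.011. At the low end were Rps12, Rpl27 and Rpl7l1, with 24.6, 46.6 and 79.1 CPM per kb. Rps12 and Rpl27 encode core ribosomal proteins, and more counts stood on the rows of their near-identical copies.

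The rows of Rps12-ps3 and Rpl27-ps3 held 71433 and 77407 counts over all mice, against 2696 for Rps12 and 6079 for Rpl27, which is 96.4% and 92.7% of each pair. Counts were split more evenly between Rpl10 (88719 counts) and Rpl10-ps3 (87394), Rpl35 (58862) and Gm2000 (75430), and Rpl37 (37831) and Rpl37rt (38771), with 49.6, 56.2 and 50.6% on the copy. These 5 copies, named for their high counts, changed in the same direction as their parents, with log2 fold changes of -0.49 for Rps12-ps3, -0.45 for Rpl27-ps3, -0.52 for Rpl10-ps3, -0.55 for Gm2000 and -0.38 for Rpl37rt, each at an adjusted p of at most 0.0053. Of all 50 tested rows that share words with these genes, 15 fell, 1 rose and 34 had no call. The row that rose was BC004004, which shares 28.2% of the words of Rpl21 (0.18 ± 0.05, adjusted p = 0.019). Of the 89 genes, 46 share over 50% of their 59-base words, the read length, with other transcripts. By words shared (up to 20%, up to 60% and above), 12 of 13, 34 of 34 and 34 of 34 tested genes fell, with medians of -0.52, -0.53 and -0.54. When the copies were added to their parents, a choice made after the data were seen, again 80 of 81 fell (18.7% of the 14994 genes then tested) and the median was -0.53.

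By the positions of GENCODE M21 (GRCm38), the genes with the largest and the smallest fall lie on chromosomes 11 and X, and both were among the genes affected by this split. Rpl27 (chr11:101442298-101445529, plus strand) was 22.7, 24.0, 32.5, 33.5 and 30.5 CPM in CD and 11.9 to 22.0 CPM (median 18.5) in FFD mice, -0.70 ± 0.16 SE, adjusted p = 0.0055, and with its copy the change was -0.46. Rpl10 (chrX:74270812-74273135, plus strand), a protein of late subunit assembly, was 355, 418, 375, 377 and 365 CPM in CD and 258 to 345 CPM (median 308) in FFD mice, -0.30 ± 0.08 SE, adjusted p = 0.0085, and with its copy -0.41. Rps12 went from -0.51 to -0.49 and Rpl35 from -0.64 to -0.59. The position of these genes at the ends of the range therefore moved with the treatment of copies, while their direction did not.

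Rps27l (chr9:66946086-66949516, plus strand) was the gene that did not pass the test. It is a near-identical protein to Rps27 and a known target of p53. Its level was 138, 162, 180.5, 169 and 161 CPM in CD and 139 to 174 CPM (median 150.3) in FFD mice, and every FFD mouse lay within the CD range (-0.09 ± 0.08 SE, adjusted p = 0.38). When libraries were scaled by the summed counts of the ribosomal protein genes instead, so that changes are relative to the group, Rps27l was the 1 gene of 81 called, with a log2 fold change of 0.44 ± 0.11 and an adjusted p of 0.0044. On this scale 58.4% of all tested genes were higher in FFD mice and 1.06% lower, so a higher call is common there. The relative change of Rps27l was 0.39 to 0.49 with each mouse left out in turn, with adjusted p of 0.0014 to 0.014. The other 80 genes ranged from -0.20 to 0.21 relative to the group and 0 of them passed the test, with 1 at an unadjusted p under 0.05. Rpl10 passed it without CD mouse 1 (adjusted p = 0.028) and Rps29 without FFD mouse 3 (adjusted p = 0.049).

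Tested paralogs were set against their parent genes by the ratio of counts within each mouse, for 4 pairs chosen after the data were seen. The ratio of Rps27l to Rps27 was 0.395, 0.321, 0.418, 0.351 and 0.390 in CD mice and 0.390 to 0.535 in FFD mice, with means of 0.375 ± 0.0386 and 0.450 ± 0.0522. Over all 462 splits of the mice, an exact two-sided permutation test gave p = 0.026 (adjusted over the 4 pairs, 0.043), where the smallest possible p is 0.0022. Rpl36al, which lies apart from Rpl36a and gives a nearly identical protein, had ratios of 0.981, 0.841, 0.981, 1.07 and 1.08 in CD and 1.03 to 1.25 in FFD mice, and 5 of the 6 FFD mice were above all CD mice (exact permutation p = 0.0087, adjusted 0.035). For Rpl7l1, a protein of ribosome assembly related to Rpl7, the mean ratio was 0.0991 ± 0.00770 in CD and 0.111 ± 0.00746 in FFD mice (exact permutation p = 0.032, adjusted 0.043). Rpl22l1 against Rpl22 had 0.537 ± 0.0306 and 0.497 ± 0.0416, which did not pass (exact permutation p = 0.11). These calls were sensitive to single mice. With each of the 11 mice left out in turn, the adjusted p ranged from 0.021 to 0.095 for each of the first 3 pairs and stayed under 0.05 in 3 cases for Rps27l, 5 for Rpl36al and 1 for Rpl7l1. These were the fits without CD mouse 3 or FFD mouse 3 or 4 for Rps27l, without CD mouse 3, 4 or 5 or FFD mouse 3 or 4 for Rpl36al, and without FFD mouse 3 for Rpl7l1. As single genes, Rpl36al, Rpl7l1 and Rpl22l1 fell, with log2 fold changes of -0.38, -0.33 and -0.54.

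**Figure D4:**
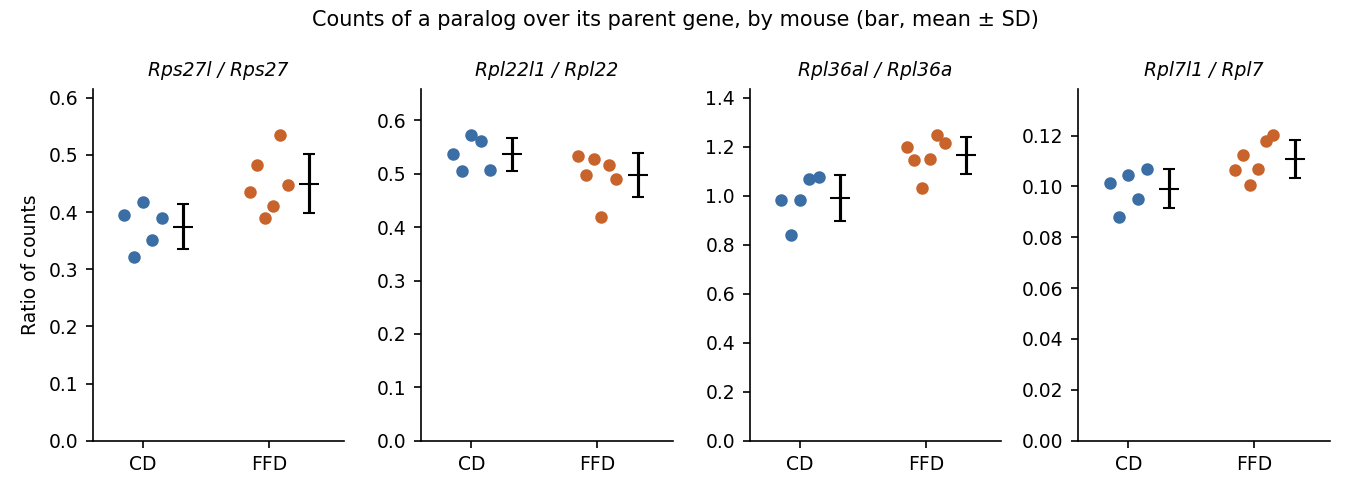
Ratio of the counts of a paralog to those of its parent gene (y axis, linear, from 0) in each CD and FFD mouse (points), with mean and SD at the side. For Rpl36al over Rpl36a, 5 of 6 FFD mice lie above the highest CD mouse, for Rps27l over Rps27 and Rpl7l1 over Rpl7 4 of 6, and for Rpl22l1 over Rpl22 none does.

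Ribosomal proteins whose genes carry other names were also examined. Rack1, a signalling scaffold on the small subunit, was 1380.2 ± 195 CPM with cellulose and 921 ± 113 CPM without it, a fall without overlap (-0.58 ± 0.11 SE, adjusted p = 0.0023). Fau, a ubiquitin-like fusion with a small subunit protein, was 113 ± 16.1 CPM with cellulose and 93.4 ± 5.59 CPM without it (-0.28 ± 0.09 SE, adjusted p = 0.024). Its call was lost without CD mouse 2, 3 or 4 or FFD mouse 2, with adjusted p of 0.051 to 0.075. Its copy Gm9843 had more counts (115691), and with copies added the change of Fau was -0.32.

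Other genes of translation were counted from lists by function. Of the 7 tested genes in the elongation factor list, 6 fell and 0 rose (median -0.44). The gene without a call encodes a kinase, not an elongation factor. Eef1b2, Eef1d and Eef1g, the exchange factor that recharges elongation factor 1A, had changes of -0.53, -0.47 and -0.48. Eef2, which moves the ribosome along the mRNA, was 2919.8 ± 328 CPM with cellulose and 2219 ± 216 CPM without it (-0.40 ± 0.10 SE, adjusted p = 0.0073). Of the 14 genes for subunits of eIF3, the factor that loads the small subunit, 12 fell and 0 rose (median -0.37). Those that fell included Eif3m (-0.44), Eif3g (-0.47), Eif3l (-0.43) and Eif3e (-0.41). Naca, part of the complex that meets the nascent chain, fell (-0.48), as did Btf3 (-0.26) and the nucleolar chaperone Npm1 (-0.68). Tpt1, a TOP mRNA that encodes no ribosomal protein, had -0.14 ± 0.08 SE, adjusted p = 0.17.

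Chaperones of single ribosomal proteins, which hold these until assembly, fell in 7 of 8 cases, and 0 rose (median -0.41). They included Tsr2, the carrier of Rps26, at 16.3 ± 0.806 CPM with cellulose and 10.4 ± 1.47 CPM without it (-0.65 ± 0.10 SE, adjusted p = 0.0011) and Grwd1, the carrier of Rpl3 (-0.69 ± 0.15 SE, adjusted p = 0.0039). Bccip and Pdcd2, the carriers of Rpl23 and Rps2, had changes of -0.39 and -0.38. The 78 mitochondrial ribosomal protein genes, which serve the ribosome inside mitochondria, were lower in 54 and higher in 1 case, with a median of -0.29 and a share of counts of 0.433 ± 0.0308% in CD and 0.328 ± 0.0347% in FFD mice.

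Genes of cap binding and of the mTORC1 pathway, which act upstream of ribosomal protein mRNAs, were mostly without a call. Of 16 cap binding genes, 4 fell and 3 rose, shares near the 18.6% and 18.2% of all tested genes. Larp1, the protein that binds the TOP motif, was 253 ± 8.44 CPM with cellulose and 207 ± 19.3 CPM without it, a fall (-0.29 ± 0.07 SE, adjusted p = 0.0076), and so did Eif4b, a cofactor of the eIF4A helicase (-0.48 ± 0.09 SE, adjusted p = 0.0025). Eif4ebp3, a repressor of the cap-binding protein, rose from 105 ± 7.84 to 160.3 ± 28.7 CPM (0.61 ± 0.12 SE, adjusted p = 0.0025). Eif4g3 rose by 0.41 and Eif4a2 by 0.26 on the log2 scale, where the call of Eif4a2 was lost without CD mouse 2, 3 or 4 or FFD mouse 4 (adjusted p of 0.050 to 0.064). Of 23 mTORC1 genes, 2 fell and 0 rose, and the median was -0.030. Akt1s1, an inhibitory subunit, fell (-0.40 ± 0.07 SE, adjusted p = 0.0015). Rps6kb1, the S6 kinase itself, had -0.22 ± 0.07 SE, adjusted p = 0.030, a call lost without CD mouse 1, 3, 4 or 5 or FFD mouse 1, 2 or 6 (0.055 to 0.092). Sesn1 and Sesn3, sestrins that restrain mTORC1, had -0.33 (adjusted p = 0.050, above the threshold) and -0.34 (adjusted p = 0.060), and passed without CD mouse 5, and Sesn1 also without FFD mouse 3. RNA levels say nothing of the activity of this kinase.

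**Figure D5:**
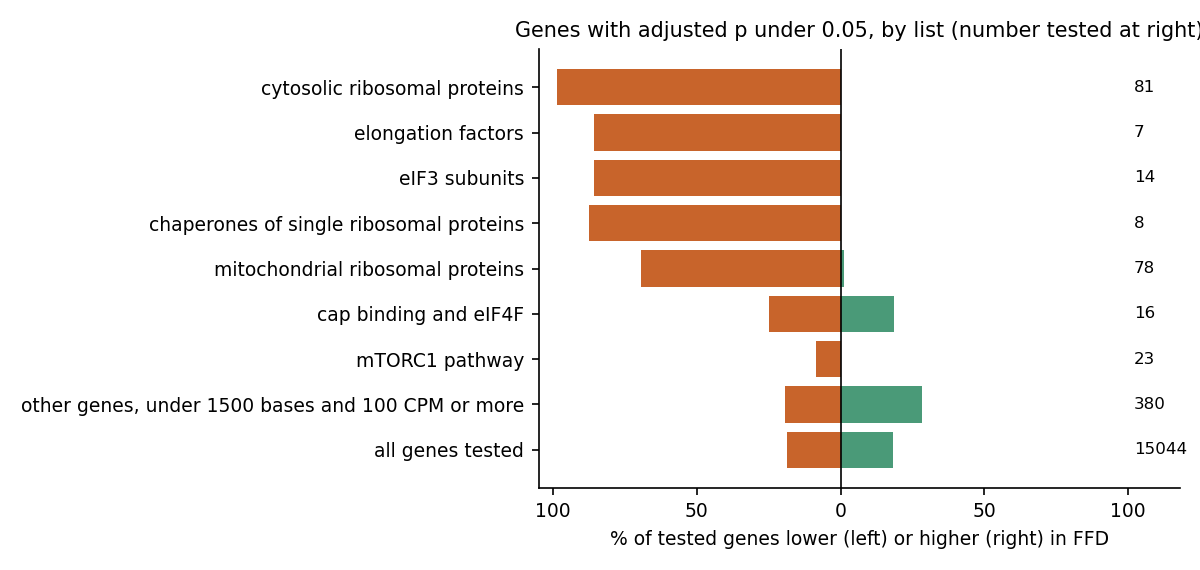
Share of tested genes (x axis, %) that were lower (left) or higher (right) in FFD mice with an adjusted p under 0.05, for cytosolic ribosomal proteins, lists of translation genes, other short and abundant genes, and all genes, with the number tested at the right. Cytosolic ribosomal proteins were lower in 80 of 81 cases, short and abundant other genes in 19.5% and all genes in 18.6%.

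Genes of other functions and cell types were measured in the same libraries. Of 15 genes of dividing cells 12 fell, and their summed levels were 1359 to 1868 CPM in the CD and 551 to 1297 CPM in the FFD group. FFD mouse 6 was lowest in both this sum and the ribosomal protein share, whereas CD mouse 1, the lowest CD mouse in that share, stood at 1689 CPM, the third of the CD mice. Epithelial genes were higher for 7 of 10, with Krt20, a keratin of the differentiated surface cells, at 613 ± 88.8 CPM with cellulose and 1353 ± 448 CPM without it. Transcripts encoded in mitochondria held 4.04 to 6.27% of counts in the CD and 4.97 to 6.42% in the FFD group, with CD mouse 1 the highest CD mouse. Macrophage, monocyte and neutrophil genes were higher for 2 of 12 tested, near the 18.2% of all tested genes, and their sums were 17.5 to 25.7 CPM with and 20.1 to 41.7 CPM without cellulose. Genes of stroma, endothelium and glia were called in 0 of 4 (at 4.13 to 7.76 CPM summed over 10 genes, 6 of them without a read in at least 1 mouse). The part of any of these in the fall of the ribosomal protein genes was not tested. Of 380 other genes under 1500 bases and at 100 CPM or more, 19.5% fell and 28.4% rose (median 0.048). This split was added after the data were seen.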

How the data were processed

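The authors detached epithelial cells of the colon with DTT and EDTA, purified them on Percoll and sequenced poly(A) RNA in single reads of 59 bp. Mapping to GRCm38 used the Qiagen CLC Workbench 10.0.1, and the authors deposited the raw read count per gene. The submitters' processing notes add R 3.5.1, DESeq2 1.22.2 and FastQC. No source read here states the annotation release. From the counts, edgeR 4.0.16 in R 4.3.3 tested diet with the quasi-likelihood test after filterByExpr (minimum count 10, minimum total 15) and TMM, with Benjamini-Hochberg adjustment over 15044 genes and a threshold of 0.05. Nothing in the labels says whether mice of a diet shared a cage. The p-values measure only the spread between these mice, and a spread between cages, if any, is not in them. Within a diet no library was a repeat of another, as chi-square over degrees of freedom was 11.1 or more for each pair. Pairs across the diets were not compared. Symbols were matched to GENCODE M21 (91.4%). DESeq2 1.42.0, limma-voom of limma 3.58.1, other scalings and filters, a replicate block and each mouse left out in turn were alternatives.

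Named genes are the 10 ribosomal protein genes with the smallest p, the 4 largest changes in each direction, those in lists of subunit roles and paralogs, the 5 highest levels per kb, and up to 4 genes per translation list plus those that moved against their list, while genes of cell type lists are given as levels. The ribosomal protein genes and all lists were chosen with earlier results of these data known. Rps10, Rpl15, Rpl28, Rpl21 and Rpl37 and the copies are named outside this rule, after their values were seen. A few other names are not reported here.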

Additional observations from a re-analysis of the deposited data

Results flagged for a closer look

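Among the named genes, 148 groups of mice were searched for a mouse that stands apart by Dixon's test, which flags about 1 in 20 groups by chance, and 2 were found. Rpl7l1 was 90.7 CPM in CD mouse 1, below the 4 other CD mice. Sesn1 was 8.53 CPM in FFD mouse 3, above the 5 other FFD mice.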

How the results depend on the processing

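The count of 80 ribosomal protein genes lower and 0 higher was the same under DESeq2, other size factors, upper quartile scaling, TMM without these rows, other filters, limma-voom, summed copies and with each mouse left out. With a mouse left out, the median log2 fold change was -0.58 to -0.47, the difference in share -2.37 to -1.95 points, and 1983 to 2993 genes fell and 2281 to 3086 rose in all, with the lowest counts without CD mouse 3. Without TMM, 81 ribosomal protein genes fell with a median of -0.68, and 4863 genes fell and 1636 rose in all. Scaled by the summed ribosomal protein genes, 0 of them were lower and 1 higher, the median was -0.0099, and 160 genes fell and 8785 rose, since that scaling sets the group to no change. The median of all genes shifted by -0.15 without TMM and by 0.52 with that scaling, and relative to it the median of ribosomal protein genes was -0.49 and -0.50, as against -0.50 with TMM. On that scale the log2 fold changes turned positive for Rps7 0.0080, Rpl39 0.013, Rpl26 0.013, Rplp0 0.037, Rpl13a 0.045, Rpl30 0.067, Rpl38 0.070, Rpl22 0.088, Rps14 0.096, Rpl19 0.10, Rplp1 0.10, Rpl41 0.13, Rpl36al 0.14, Rpl31 0.15, Rps27 0.17, Rps29 0.19, Rpl7l1 0.20, Rpl10 0.21 and Rps27l 0.44 among ribosomal protein genes, and for Eef1g 0.035, Eif4b 0.038, Naca 0.042, Eif3g 0.046, Eef1d 0.047, Eif3m 0.077, Eif3l 0.087, Eif3e 0.10, Akt1s1 0.12, Bccip 0.12, Eef2 0.13, Pdcd2 0.14, Sesn1 0.18, Sesn3 0.18, Larp1 0.22, Fau 0.26, Btf3 0.27, Rps6kb1 0.29 and Tpt1 0.39 among others. The replicate number of the labels did not pair the mice (correlation of deviations from -0.28 to 0.23, over 0.1 in 2 of 5 pairs). With it as a replicate block, in which FFD mouse 6 adds nothing, 74 ribosomal protein genes fell, the median was -0.49, and 1829 genes fell in all. Of 1460 other values of named genes, 1429 kept their direction and side of the threshold. Counts of at most 29 over all mice limit the 8 untested genes, whose change was not detectable here.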
